A study of Homo sapiens with 2 samples.

Results

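The sodium pump genes described here are 6: the regulatory subunit genes FXYD2, FXYD3, FXYD5 and FXYD6 and the beta subunit genes ATP1B1 and ATP1B3. They are 6 of 25273 genes with a value in both libraries. They were chosen by measured values, the FPKM of FXYD2 in these 2 libraries and of its family and partner subunits, so every value in this contrast is a description and supports nothing. The members' transcripts are the annotated RefSeq transcripts of these genes plus assembled transcripts, read from the data by the authors' software, that carry a strand and share an intron with them. The libraries come from A549, an established line from a human lung adenocarcinoma that the labels call non-small cell lung cancer. The control group (shLacZ) carries an shRNA against LacZ, a bacterial gene without a human counterpart, and the other group (shPSPC1) carries an shRNA against PSPC1, a paraspeckle protein. Both groups were grown in medium with 10% serum and 1% penicillin/streptomycin, and each holds 1 library. The labels name no drug, time point or clone, and give neither the shRNA sequences nor how many shRNAs were used, so that effects of an shRNA on other targets cannot be told apart from those of PSPC1. With 1 library per group no difference has a replicate check, and no p-value can be given.

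The sodium pump, or Na,K-ATPase, moves sodium out of the cell and potassium into it at the cost of ATP. Its alpha subunit is the catalytic chain, its beta subunit is a glycosylated partner needed for the pump to fold and reach the plasma membrane, and a small single-span FXYD protein can bind the pair and tune its affinity for ions. FXYD2, the gamma subunit, is best known from the kidney tubule, where it modulates the affinity of the pump for sodium and where a dominant mutation of the gene causes renal magnesium loss. In lung epithelium the pump drives the sodium absorption that keeps the airspaces free of liquid.

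Values are FPKM, the number of sequenced fragments of a transcript divided by its length and the depth of its library, summed over a gene's transcripts. The value after ± is the half-width of the 95% interval, which covers error within a library only. Log2 ratios are knockdown over control on the log2(FPKM + 1) scale, which understates the change of genes with low FPKM. The words rose and fell are kept for genes past a rule of size: at least 1 FPKM in the higher library, at least a 2-fold difference on that scale, and intervals that do not overlap. Of 11496 genes with 1 FPKM or more in at least 1 library, 1.64% were past this rule as higher with shPSPC1, 1.95% as lower and 3.59% in either direction. A second value per gene is its estimated number of fragments, recovered from FPKM, transcript length and depth, because a short assembled transcript in 1 file alone can raise summed FPKM at an equal number of fragments. The depth implied by the files was 56200000 fragments for shLacZ and 57100000 for shPSPC1. The targeted gene PSPC1 had 31.5 ± 1.25 FPKM with shLacZ and 17.7 ± 0.858 FPKM with shPSPC1, a log2 ratio of -0.79 that did not reach the rule of size.

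FXYD2 was the 1 member past the rule. It had 5.51 ± 0.979 FPKM with shLacZ and 43.3 ± 2.73 FPKM with shPSPC1. The intervals did not overlap, and the knockdown library was the high one. The log2 ratio was 2.77, and the ends of the 2 intervals allowed 2.47 to 3.09. In fragments, FXYD2 had 127 with shLacZ (exact Poisson 95% interval 106 to 151) and 1006 with shPSPC1 (945 to 1070). Per unit of depth this was 7.79-fold more, with an exact 95% interval of 6.48 to 9.45 that covers counting error only. Among the 11308 genes above 0 in both libraries that reached 1 FPKM in at least 1, FXYD2 ranked 5 by log2 ratio of summed FPKM and 8 by that of estimated fragments. By level it ranked 7164 of the 11496 genes with shLacZ and 1376 with shPSPC1. In this cultured line, as in any bulk sample, more cells that express the gene and more RNA per cell cannot be told apart.

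**Figure D1:**
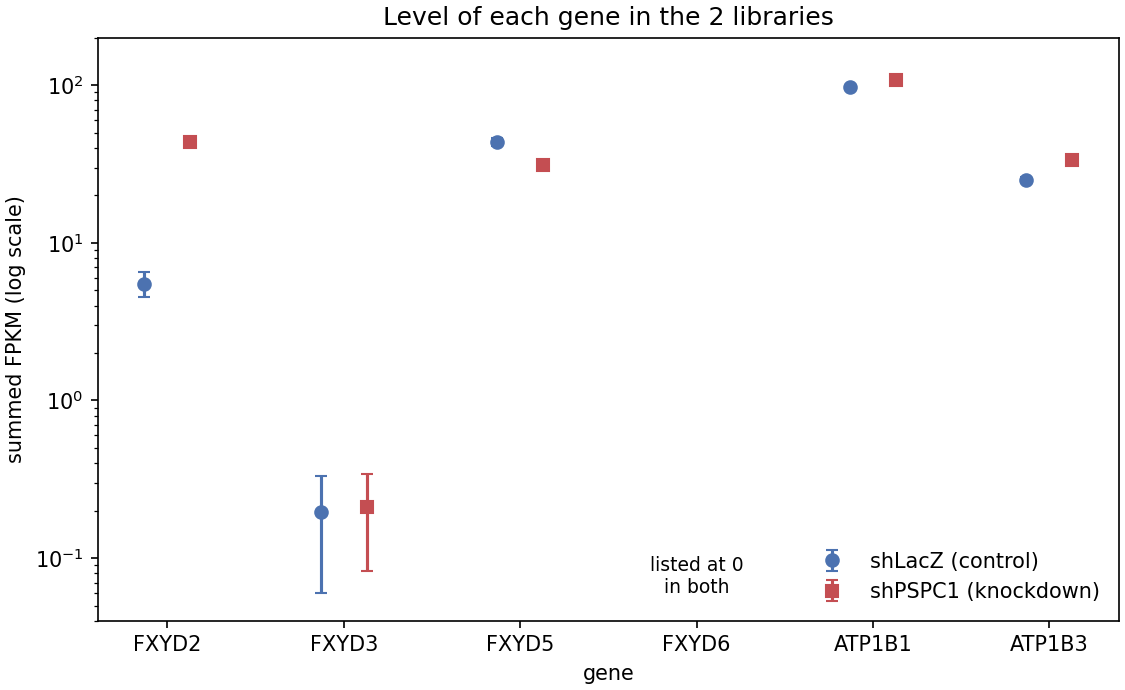
Summed FPKM on a log scale (y axis) of the 6 members (x axis) for the control library (blue circles) and the knockdown library (red squares). Bars are 95% intervals, with the half-widths of the deposited transcript intervals added as squares where a gene has several transcripts above 0. FXYD2 lies at 5.51 FPKM with shLacZ and 43.3 with shPSPC1, while FXYD5, ATP1B1 and ATP1B3 differ less than 2-fold between libraries and FXYD6 is listed at 0.

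FXYD2 lies on the minus strand of chromosome 11, at 117690790 to 117698807 in the coordinates of the files, whose build no header or label names. RefSeq has 2 transcripts of it that start at different first exons and share the 5 exons that follow. In isoform 1 (NM_001680.4) the first exon is chr11:117695369-117695459, and in isoform 2 (NM_021603.3) it is chr11:117698710-117698807, upstream of the other. The coding sequences differ at their start only, and they are shown because the first exon is the one feature by which the 2 isoforms can be told apart in these data. Capitals mark the coding bases of the first exon, read 5′ to 3′ from the GENCODE release 29 transcripts matched to these accessions.
FXYD2 isoform 1: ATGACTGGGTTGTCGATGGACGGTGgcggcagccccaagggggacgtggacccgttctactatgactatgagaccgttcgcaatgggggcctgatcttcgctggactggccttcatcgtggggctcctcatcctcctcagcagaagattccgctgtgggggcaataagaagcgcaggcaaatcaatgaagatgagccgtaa
FXYD2 isoform 2: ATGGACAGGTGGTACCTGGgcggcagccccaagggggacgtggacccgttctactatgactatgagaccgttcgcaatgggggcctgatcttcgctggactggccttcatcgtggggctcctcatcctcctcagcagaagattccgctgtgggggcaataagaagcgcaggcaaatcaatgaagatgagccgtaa
The first exon gives 25 of the 201 coding bases of isoform 1 and 19 of the 195 of isoform 2. The sequences encode 66 and 64 amino acids.

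All of the FXYD2 signal in both libraries was given to isoform 1. Its share of FXYD2's FPKM was 100% with shLacZ and 100% with shPSPC1, at 5.51 and 43.3 FPKM. Isoform 2 was listed at 0 in both. The files mark isoform 2 as fully covered by reads with shPSPC1 and as not fully covered with shLacZ, and isoform 1 as fully covered in both, so the listed 0 does not show that the upstream first exon went unread. No assembled transcript was built at the gene in either library.

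The members of the FXYD family are named after a conserved stretch next to the membrane, proline, phenylalanine, any residue, tyrosine and aspartate. It is shown for the 4 FXYD members because it is the feature that makes them a family. The codons of this stretch are in capitals, with flanking coding bases in lower case.
FXYD2: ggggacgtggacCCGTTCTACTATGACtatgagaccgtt
FXYD3: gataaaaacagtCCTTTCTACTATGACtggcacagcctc
FXYD5: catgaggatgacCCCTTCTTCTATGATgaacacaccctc
FXYD6: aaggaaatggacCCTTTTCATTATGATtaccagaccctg
Both FXYD2 isoforms hold the stretch downstream of the exon in which they differ. Over the 39 bases shown, FXYD2 differed from FXYD3 at 18, from FXYD5 at 15 and from FXYD6 at 13. Within the 15 bases of the motif the differences were 1, 3 and 5.

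FXYD6, the next annotated gene upstream of FXYD2 on the same strand, is a pump regulator best known from the nervous system. Its 5 annotated transcripts, at chr11:117707691-117748201, were listed at 0 in both libraries. RefSeq also has 2 read-through transcripts, FXYD6-FXYD2, that start at a first exon of FXYD6 (chr11:117747307-117747746) and end at the last exon of FXYD2. Both were listed at 0 in both libraries, and no assembled transcript joined the 2 genes. A listed 0 can be a failed estimate in these files: of 76 ribosomal protein genes, 3 were listed at 0 with shLacZ and 4 with shPSPC1, RPS27 and RPS28 among the latter. RefSeq also names 3 pseudogene copies of FXYD6, with which reads could be shared, and 0 of FXYD2.

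**Figure D2:**
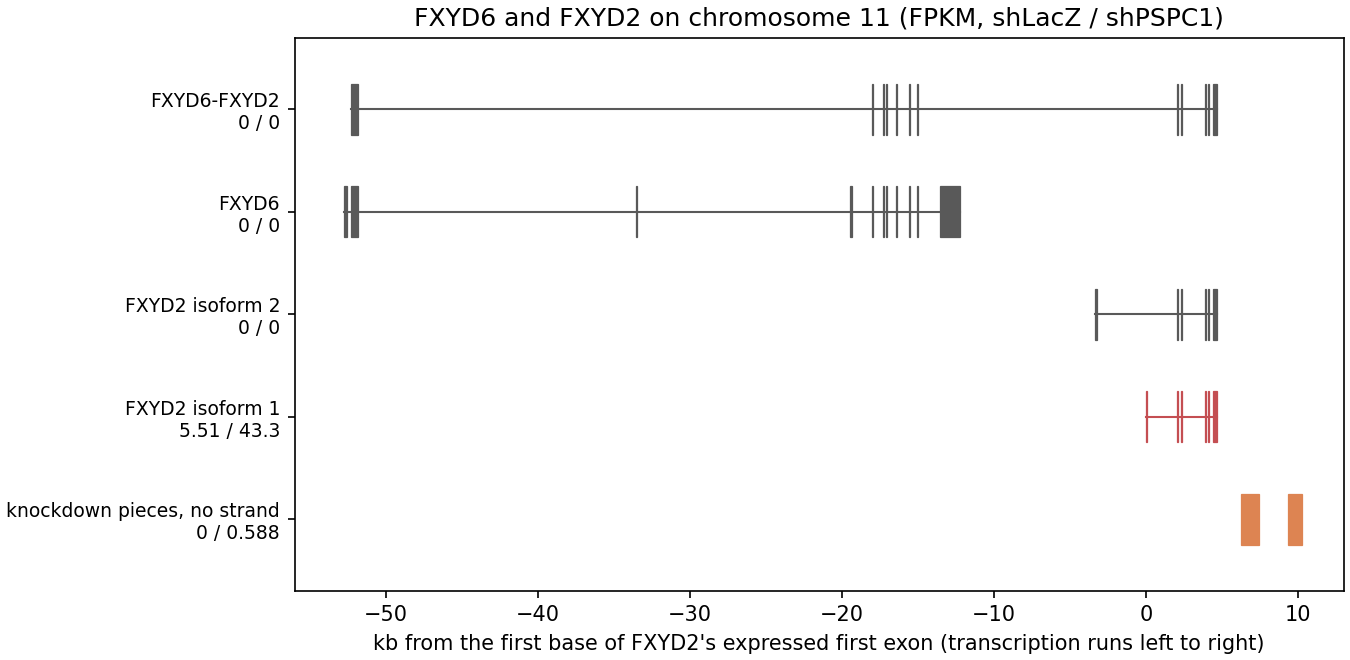
Exons (boxes) and introns (lines) of FXYD6, the read-through transcripts and both FXYD2 isoforms, placed by distance in kb from the first base of the FXYD2 isoform 1 first exon (x axis), with the FPKM of both libraries beside each name, shLacZ first. Only isoform 1 has a value above 0 among the annotated transcripts, and the orange boxes are 2 strandless assembled pieces of the knockdown library past the end of FXYD2.

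By summed FPKM, no gene around FXYD2 was past the rule with it. Within 500 kb to either side lay 14 genes, of which 2 reached 1 FPKM in a library. Of these, 0 were past the rule of size, beside 3.59% of all 11496 genes. With only 2 genes able to pass, this count says nothing about the locus. CEP164, a centriole protein gene, had 6.56 ± 0.367 FPKM with shLacZ and 5.50 ± 0.339 with shPSPC1. MPZL3, an adhesion protein gene 402 kb upstream, had 0.974 ± 0.290 and 1.35 ± 0.310 FPKM with overlapping intervals. The estimated fragments of MPZL3 were 45 and 192, a log2 ratio of 1.37 by that measure, past the rule, against 0.25 by summed FPKM. The nearest gene downstream, DSCAML1, which encodes a neuronal adhesion protein, had 0.0713 ± 0.0274 FPKM with shLacZ and 0.212 ± 0.0763 with shPSPC1, or 27 and 47 fragments.

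FXYD5 (dysadherin), which binds the pump and is known for weakening cell adhesion in carcinoma cells, was the most abundant FXYD gene of the control. It lies on the plus strand at chr19:35645625-35660788. It had 43.8 ± 2.77 FPKM with shLacZ and 31.0 ± 1.72 FPKM with shPSPC1. The intervals did not overlap, the control was the high library, and the log2 ratio of -0.48 did not reach the rule of size. Intervals without overlap are common here, since 51.6% of the 11496 genes had them. In fragments, FXYD5 had 1466 with shLacZ and 1293 with shPSPC1, a log2 ratio per unit of depth of -0.20 with a counting interval of -0.31 to -0.10.

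The direction of the FXYD5 difference depends on which of its transcripts are summed. The knockdown library had all of its signal on NM_014164.5, at 31.0 FPKM over 895 bases. The control divided it between that transcript, at 19.8 ± 1.61 FPKM, and an assembled one at 23.9 ± 2.26 FPKM over 643 bases. The assembled transcript had the same 8 introns and ended 252 bases earlier, with a last exon of 68 bases in place of 320. With annotated transcripts alone the log2 ratio of FXYD5 was 0.62, higher with shPSPC1. The other 3 annotated transcripts of FXYD5 were listed at 0 in both libraries.

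FXYD3 (MAT-8), which lies in the same cluster of genes as FXYD5 and is known from stomach, colon and breast tumours, was near the detection limit. It lies on the plus strand at chr19:35606732-35615228 and has 8 annotated transcripts from 1 start site. It had 0.195 ± 0.135 FPKM with shLacZ and 0.211 ± 0.129 with shPSPC1, from 11 and 15 fragments, and the intervals overlapped almost entirely. The control placed these on NM_005971.3 (0.126 FPKM) and NM_001136008.1 (0.0688 FPKM). The knockdown library placed them on NM_005971.3 (0.118 FPKM) and NM_001136012.1 (0.0934 FPKM). A difference in FXYD3 was not detectable at this depth. Of the 36 other genes within 500 kb of FXYD3, FXYD5 among them, 12 reached 1 FPKM. Of these, 0 were past the rule of size, beside 3.59% of all 11496 genes. With 12 genes able to pass, a count of 0 is near that share and is no trait of the cluster.

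FXYD2 and FXYD5 exchanged rank within the family. FXYD2 gave 11.1% of the summed FPKM of all FXYD genes with shLacZ and 58.1% with shPSPC1. FXYD5 gave 88.5% with shLacZ and 41.6% with shPSPC1. When the fragments of each gene were placed on its most abundant annotated transcript, so that the short assembled transcript of FXYD5 no longer counted per its own length, FXYD2 gave 13.4% and 58.1%. By estimated fragments, which place each gene on its longest annotated transcript, one listed at 0 in the case of FXYD5, FXYD2 gave 22.8% and 72.6%. The ratio of FXYD2 to FXYD5 was 0.155 with shLacZ and 1.40 with shPSPC1 on the most abundant annotated transcripts, and 0.297 and 2.68 by estimated fragments. FXYD1, FXYD4 and FXYD7 were listed at 0 in both libraries.

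ATP1B1, the beta subunit that is widespread in epithelia, was the most abundant pump gene in both libraries. It lies on the plus strand at chr1:169075947-169101960. It had 97.5 ± 1.84 FPKM with shLacZ and 108 ± 2.30 FPKM with shPSPC1, from 11173 and 12210 fragments. The intervals did not overlap, the knockdown library was the high one, and the log2 ratio of 0.15 by summed FPKM and 0.10 by fragments per unit of depth lay far within the rule of size. With the annotated transcript alone the sign turned, to -0.31.

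The control had 1 ATP1B1 transcript, the annotated NM_001677.3. The knockdown library had that one at 78.4 ± 1.83 FPKM and an assembled one at 29.7 ± 1.39 FPKM, which was 27.5% of the gene's FPKM. The assembled transcript shared 4 of 5 introns with the annotated one and differed at its start. Its first exon, chr1:169077384-169077401, is 18 bases long and begins 1437 bases downstream of the annotated start, within the first annotated intron. NME7, a gene on the opposite strand that overlaps ATP1B1, was listed at 0 with shLacZ and had 2.09 ± 0.0733 FPKM with shPSPC1, a log2 ratio of 1.63 by summed FPKM and 5.38 by estimated fragments, past the rule by both. Its FPKM came from 1 assembled transcript of 28501 bases and an estimated 3388 fragments, which includes all 2200 exon bases of ATP1B1 within 1 exon. On the length of the longest annotated NME7 transcript these fragments are 40.7 FPKM. The labels do not say if the libraries kept the strand, so reads of the overlapping stretch cannot be told apart. RefSeq names 1 pseudogene copy each of ATP1B1 and of ATP1B3, with which reads may also be shared.

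ATP1B3, a beta subunit found in many tissues, lies on the plus strand at chr3:141595470-141645382. It had 25.2 ± 1.03 FPKM with shLacZ and 33.4 ± 1.71 FPKM with shPSPC1. The intervals did not overlap and the log2 ratio was 0.39, below the rule of size. In fragments the values were 2398 and 2684, a log2 ratio per unit of depth of 0.14 with a counting interval of 0.06 to 0.22. Much of the difference in FPKM came from an assembled transcript that only the knockdown file holds, at 10.1 ± 1.35 FPKM over 914 bases, with 1 of 3 introns shared with the annotated NM_001679.2. The annotated transcript had 25.2 ± 1.03 FPKM with shLacZ and 23.3 ± 1.05 with shPSPC1, so that the log2 ratio over annotated transcripts was -0.11.

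Of the 16 pump subunit and FXYD genes on the list, read-through included, 1, FXYD2, was past the rule of size. It was chosen with its difference known. Only 3 of the 8 pump subunit genes and 2 of the 8 FXYD genes reached 1 FPKM, and the others could not pass. Over all 11496 genes the share past the rule was 3.59%. ATP1B1 gave 79.4% of the beta subunit FPKM with shLacZ and 76.4% with shPSPC1. By estimated fragments its shares were 79.4% and 79.0%. These are shares of RNA levels per length, and protein was not measured.

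**Figure D3:**
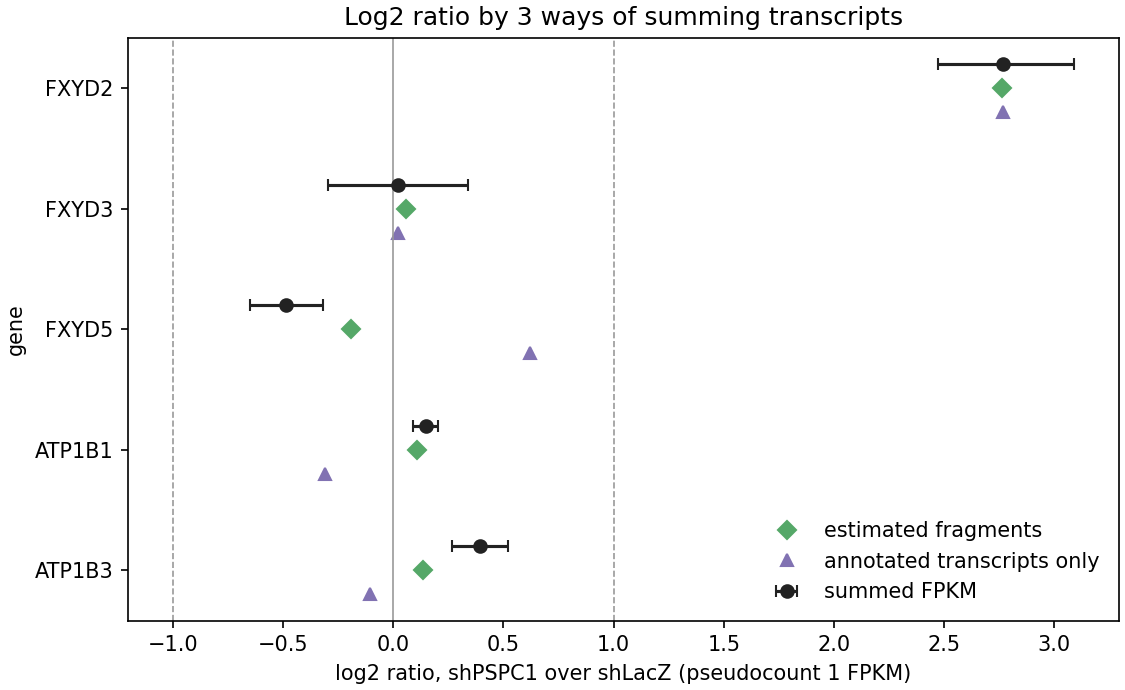
Log2 ratio of knockdown over control (x axis, pseudocount 1 FPKM) for the 5 members above 0 (y axis), by summed FPKM (circles, with bars from the ends of both intervals), estimated fragments (diamonds) and annotated transcripts only (triangles). The 3 values of FXYD2 coincide near 2.77, as they had to with 1 transcript above 0. Those of FXYD5, ATP1B1 and ATP1B3 lie on both sides of 0, and dashed lines mark the rule of size.

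**Figure D4:**
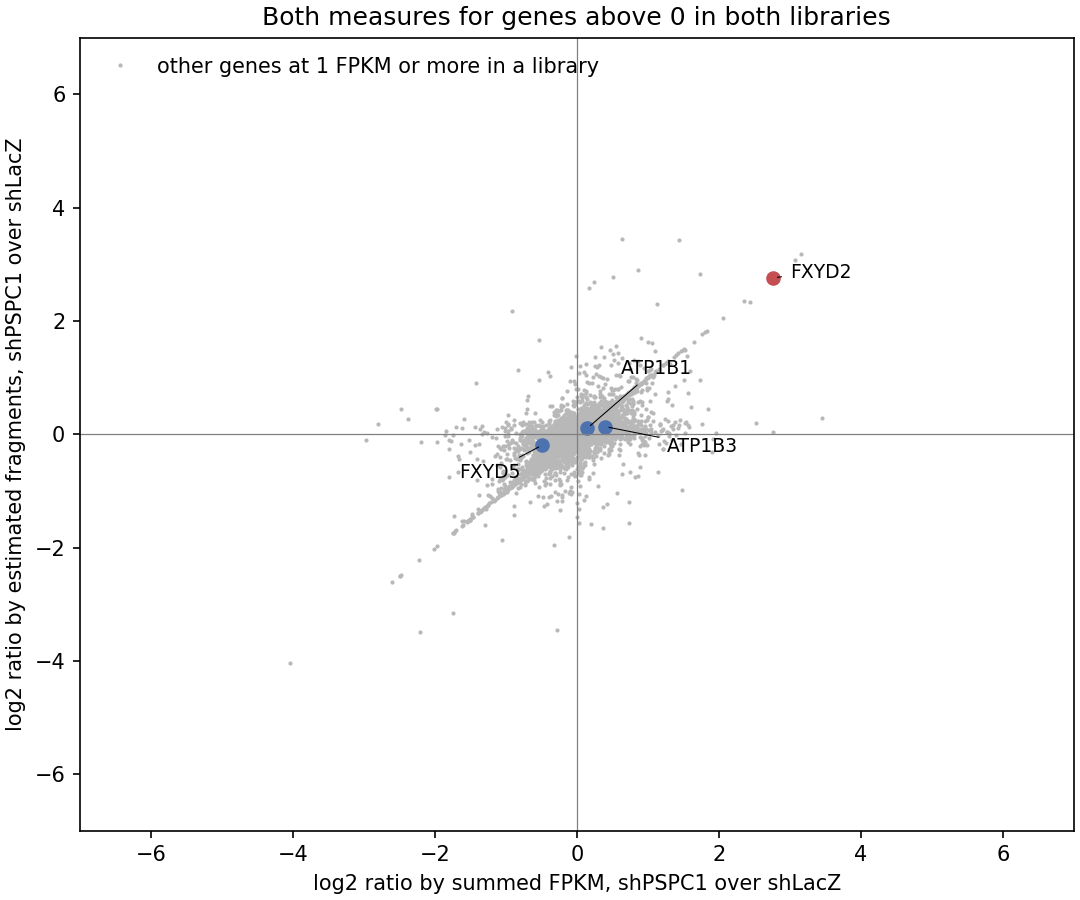
Log2 ratio by summed FPKM (x axis) against log2 ratio by estimated fragments (y axis), both knockdown over control, for the 11308 genes above 0 in both libraries and at 1 FPKM or more in at least 1 (grey), with 6 values beyond the axes. FXYD2 (red) lies on the diagonal at 2.77 and 2.76, as it had to with 1 transcript above 0. FXYD5, ATP1B1 and ATP1B3 (blue) lie among the bulk of genes near 0.

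Summed FPKM and estimated fragments of FXYD2 gave the same call, which was fixed in advance. With 1 transcript of the gene above 0, the second measure only rescales the first. By estimated fragments, 1.48% of the 11496 genes were past the rule as higher, 1.64% as lower and 3.11% in either direction. Genes above 0 in both libraries and past the rule by both measures were 0.354% of 11308 as higher and 0.593% as lower. The 2 measures had opposite signs for 11% of these genes, and for 0 of the 5 members above 0. Placing the values on a total without mitochondrial genes moved the median log2 ratio of genes at 1 FPKM or more in both libraries from 0.01 to 0.10, and that of FXYD2 from 2.77 to 2.86.

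Among genes linked to FXYD2 transcription, PCBD1, a dimerisation cofactor of transcription factors, had 79.1 ± 3.20 FPKM with shLacZ and 89.5 ± 2.73 with shPSPC1. HNF4A, a nuclear receptor gene, had 3.32 ± 0.277 and 3.15 ± 0.270 FPKM with overlapping intervals. Neither was past the rule of size.

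Sodium entry and sodium-coupled transport genes were measured because they set the load on the pump. Of 19 genes, 11 reached 1 FPKM and 0 were past the rule of size, beside 3.59% of all 11496 genes. Their median log2 ratio was -0.26, against 0.01 over all 11496 genes, and 7 of the 11 were below 0, or 8 by estimated fragments. The most abundant was SLC12A2, the sodium, potassium and chloride cotransporter NKCC1, with 51.2 ± 1.05 FPKM with shLacZ and 39.3 ± 0.641 with shPSPC1. Its log2 ratio was -0.37 by summed FPKM and -0.10 by estimated fragments. SLC20A1, a sodium-phosphate cotransporter, had 19.6 ± 0.66 and 15.7 ± 0.59 FPKM. The lowest ratio was that of SLC5A6, the sodium-dependent multivitamin transporter, at 10.5 ± 0.497 and 6.14 ± 0.377 FPKM and a log2 ratio of -0.69, and it is named here after its value was seen. The epithelial sodium channel gene SCNN1A was listed at 0 in both libraries.

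Regulators of sodium transport were likewise without a gene past the rule, at 0 of 13 measured and 11 at 1 FPKM or more, beside 3.59% of all 11496 genes. Their median log2 ratio was 0.04 by summed FPKM and -0.01 by estimated fragments. SIK1, a salt-inducible kinase, had 45.2 ± 1.03 FPKM with shLacZ and 35.1 ± 0.736 with shPSPC1, and NR3C1, the glucocorticoid receptor, had 36.4 ± 0.841 and 37.4 ± 0.786 FPKM. Among related pumps and proteins that bind the pump, 1 of 6 measured genes reached 1 FPKM. This was NKAIN4, which codes for a protein that interacts with the beta subunit, and it fell from 3.24 ± 0.427 to 1.09 ± 0.285 FPKM, a log2 ratio of -1.02. By estimated fragments, 231 and 90, its log2 ratio was -0.92 and the rule was not reached.

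**Figure D5:**
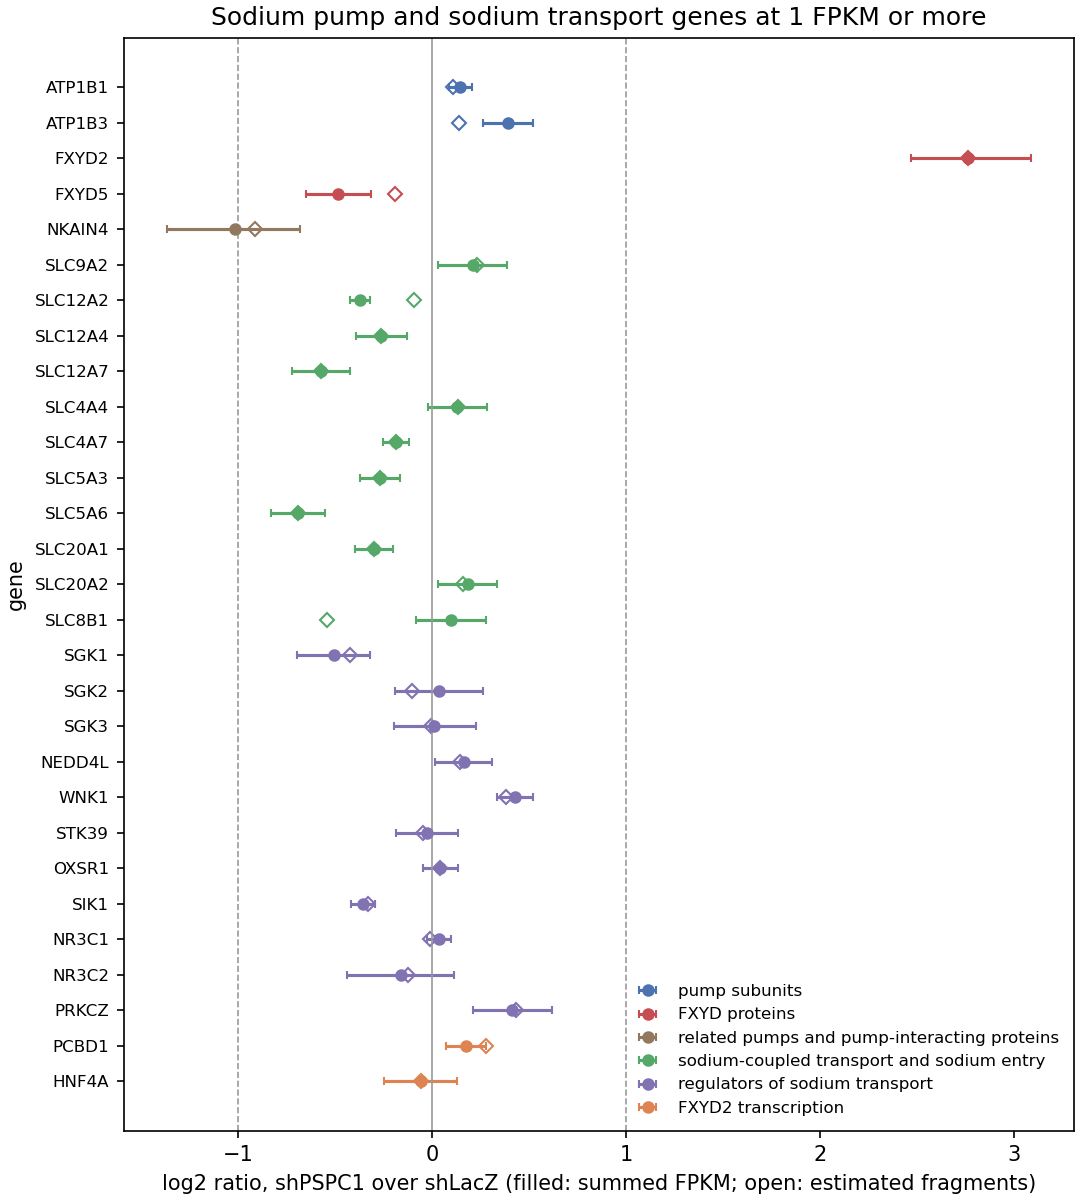
Log2 ratio of knockdown over control (x axis) for 29 of the 32 pump, FXYD, sodium transport and FXYD2 transcription genes at 1 FPKM or more in a library (y axis; the other 3 are not reported here), by summed FPKM (filled, with bars from the ends of both intervals) and by estimated fragments (open). Of those plotted, FXYD2 at 2.77 is the 1 gene beyond the upper dashed line, and NKAIN4 at -1.02 is the 1 gene beyond the lower.

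The cell identity was checked against marker genes. All 6 epithelial markers were at 1 FPKM or more, with KRT18 at 1450 and 1184 FPKM and KRT7 at 1196 and 964. All 6 of these markers had log2 ratios below 0, with a median of -0.33. Their part in the FXYD2 difference was not tested. Of 6 genes known from A549 or its tissue of origin, the enzyme genes ALDH1A1 and AKR1B10 and the trefoil factor gene TFF1 were at 1 FPKM or more. AKR1B10 had 1072 ± 7.29 FPKM with shLacZ and 2131 ± 10.2 with shPSPC1. ALDH1A1 had 3198 ± 3399 and 2714 ± 9.28 FPKM, so that its interval with shLacZ spanned 0. The lung alveolar genes SFTPB, SFTPC and NKX2-1 had 0.0550 FPKM or less in both libraries. Kidney tubule cells are where FXYD2 is best known. Their markers summed to 0.419 FPKM with shLacZ and 0.569 with shPSPC1, and 0 of 10 reached 1 FPKM. UMOD, SLC12A1 and PAX2, which define tubule segments and the renal lineage, were listed at 0 in both, and AQP1 had 0.0861 and 0.175 FPKM from 12 and 26 fragments. PAX8, on the same list, was the highest of the 10 in both libraries, at 0.256 and 0.262 FPKM from 55 and 52 fragments. Markers of fibroblasts and endothelium were below 1 FPKM in 6 of 6 cases. Among 6 leukocyte markers, CD68, which epithelial lines can also carry in lysosomes, had 15.6 ± 0.810 FPKM with shLacZ and 8.91 ± 0.610 with shPSPC1, CD14 had 2.07 ± 0.416 and 1.89 ± 0.370, and PTPRC and CD3E were at or near 0.

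The genes most like FXYD2 were the 5 with the smallest distance to it over the 2 libraries on the log2(FPKM + 1) scale, which is a description of 2 values per gene. They were the small nucleolar RNA SNORA11B and the genes RRP15, NCBP3, PIN4 and C14orf119. C14orf119 was past the rule by both measures, at 5.42 ± 0.419 FPKM with shLacZ and 21.8 ± 0.741 with shPSPC1. RRP15, a ribosome biogenesis gene, had 6.15 ± 0.240 and 26.1 ± 1.87 FPKM, but its log2 ratio by estimated fragments was -0.08. NCBP3 and PIN4 had 0.13 and 0.12 by estimated fragments, so that 3 of the 5 had this pattern in summed FPKM alone. The interval of SNORA11B spanned 0 with shLacZ, at 7.72 ± 11.6 FPKM.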

How the data were processed

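RNA sequencing of 1 control and 1 knockdown library of A549 cells was used. Reads were handled with TopHat2 2.0.7, Cufflinks 2.1.1 and CASAVA 1.8.2, per the submitters' processing notes. FPKM, its 95% interval and a coverage for each annotated or assembled transcript are the authors' own values, as the attributes of the deposited files name them. A score column was deposited as well and not used. Each file is 1 sample, so no columns had to be mapped.

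Transcripts were joined to genes by accession through RefSeq and GENCODE release tables. Assembled transcripts with a strand were given to the gene with which they shared most introns. In all, 1102 annotated transcripts in the shLacZ file and 1117 in the shPSPC1 file had no gene and were left out. FPKM was summed per gene, and half-widths were added as squares. The pseudocount was 1. Fragment numbers implied by the intervals of single transcripts with 5 to 200 fragments were whole within 0.02 for 94.7% in the shLacZ file and 94.9% in the shPSPC1 file. From these the depth and a mean fragment length of 161 and 165 bases followed, and FPKM times effective length gave fragments per gene. Placed on the longest annotated transcript, they are the estimated-fragment values. Poisson intervals cover counting error only.

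No count test was possible with 1 library per group. The rule of size and the depth estimate were tested on simulated data. The simulation held counting error only, so it does not cover variation between libraries or assembled transcripts found in 1 file alone. Named genes were the members, reported pump, FXYD and FXYD2 transcription genes at 1 FPKM or more, and in other lists those past the rule and the 2 most abundant. The members and lists were chosen with earlier results of these data known. The sequences were read from GENCODE release 29 transcripts, whose inner exon lengths matched those in the files. Promoter sequences and proteins are not shown, and values of some listed genes are not reported here. Python 3.11.15, numpy 2.4.6, scipy 1.17.1 and matplotlib 3.10.9 were used.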

Additional observations from a re-analysis of the deposited data

Results flagged for a closer look

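In data that no gene value uses, the assembled pieces without a strand, 2 pieces lay within 10 kb past the end of FXYD2 with shPSPC1 and none with shLacZ. They are in the direction of transcription, and the window was chosen after values were seen. One piece of 924 bases had 0.277 ± 0.160 FPKM from 12 fragments and began 4687 bases past the end. The other, of 1178 bases, had 0.311 ± 0.147 FPKM from 18 fragments and began 1550 bases past it. Such pieces were found with shPSPC1 alone for 11.2% of 5599 genes at 1 FPKM or more in a library with no annotated gene in the window, and with shLacZ alone for 7.18%. Downstream of FXYD5 the pieces held 11 fragments with shLacZ and 42 with shPSPC1, and downstream of ATP1B1 they held 69 and 201. Their relation to the genes was not tested.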

How the results depend on the processing

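The log2 ratio of FXYD2 kept its direction and its side of the rule of size under all 7 alternatives tried, between 2.20 and 2.95. The 3 that change which transcripts are summed could not move it, since FXYD2 has 1 transcript above 0 and no assembled one. For the same reason the alternative by estimated fragments, at 2.76, could hardly move it. The lowest value, 2.20, was with a pseudocount of 5. The number of pump and FXYD genes past the rule was 1 under all 10 alternatives. The share of the isoform 1 first exon could not move from 100% under either of its alternatives, since isoform 2 is at 0. The members that were not past the rule moved across 0: FXYD5 from -0.50 to 0.62, ATP1B1 from -0.31 to 0.25, ATP1B3 from -0.11 to 0.49 and FXYD3 from -0.01 to 0.08. For FXYD5, ATP1B1 and ATP1B3 the sign turned when assembled transcripts were left out. No paired analysis was possible because each group has 1 library, and no replicate could be left out. The strand of the libraries and the build are not given in the sources used here, and FXYD3 rests on 11 and 15 fragments.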
